A study of Homo sapiens with 6 samples.

Results

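Phosphorylation of the translation factor eIF2 and the sensors of unfolded protein in the endoplasmic reticulum (ER) were described here through 10 genes. The genes were chosen by name for their place in the pathway, with earlier results of these data known. They are EIF2AK1, EIF2AK3 and EIF2AK4, which encode eIF2 kinases, EIF2S1, which encodes the phosphorylated subunit eIF2α, PPP1R15A and PPP1R15B, which encode the phosphatase subunits that reverse the mark, and the sensor genes ERN1, XBP1, ATF6 and ATF6B. All 10 were among the 29804 gene symbols measured, and all 10 passed the filter on low counts, which left 14672 genes.

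RNA was sequenced from 22Rv1, a human prostate cancer cell line, in 3 groups with 2 libraries each. WT cells were harvested untreated at week 0, and AM (age matched) cells were kept for 6 weeks without drug. The 6WP cells received phleomycin, a radiomimetic that breaks DNA, at 1 µg/ml on each week day for 6 weeks, with exposures of 1 hour. All groups came from the same line, which carries the label WT for genotype whatever the treatment, so that WT below names only the week 0 cells. The design compared 6WP with WT cells (treatment and time in culture together), 6WP with AM cells (treatment at equal time) and AM with WT cells (culture without drug). Each exposure ended with a wash and fresh medium, and AM cells are described only as grown in parallel. Drug and handling therefore cannot be told apart in 6WP against AM cells, nor time in culture and harvest occasion in AM against WT cells. The labels call the libraries of a group biological replicates without saying how the cultures were separated, so p-values measure the spread between these libraries, whatever its source.

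When unfolded proteins collect in the ER lumen, 3 membrane sensors respond. PERK (encoded by EIF2AK3) phosphorylates eIF2α, which slows initiation at most mRNAs while ATF4 mRNA is translated more. IRE1α (ERN1) cuts an intron out of XBP1 mRNA in the cytosol, and ATF6 travels to the Golgi, where it is cleaved into a transcription factor. The other kinases feed the same eIF2α mark from haem shortage or mitochondrial stress (HRI, EIF2AK1), uncharged tRNA (GCN2, EIF2AK4) and double-stranded RNA (PKR, EIF2AK2, not among the 10 genes). Phosphorylation, cleavage and splicing are not read by gene counts, so all values below are amounts of mRNA.

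The deposited values were raw counts per gene, with library totals from 21222201 to 35311945. Expression is given as CPM, counts scaled to the library total after TMM normalization. Before TMM scaling, 3 counts equal 0.0850 to 0.141 CPM. The 6WP libraries differed from each other more than the other replicates did, with a chi-square per degree of freedom of 67.2, against 5.83 in WT and 9.36 in AM cells. All 9 luminal prostate markers were detected, with summed levels of 2182 to 2327 CPM in WT, 1651 to 1881 CPM in AM and 2010 to 2499 CPM in 6WP cells. Basal and endothelial markers (3 genes each) stayed under 1 CPM in each library, with KRT5 and CDH5 at 0, and of 4 leukocyte markers only CD68 was detected, PTPRC, CD3E and MS4A1 being at 0. The 3 neuroendocrine markers summed to 231 to 236 CPM in WT, 284 to 304 CPM in AM and 268 CPM in both 6WP libraries, mostly from ENO2. Among them CHGA was at 1.43 and 2.21 CPM in WT, 4.48 and 3.80 CPM in AM and 5.32 and 17.5 CPM in 6WP cells, where the libraries lay far apart. The summed level of 5 fibroblast markers was 16.8 to 20.5 CPM in WT, 2.00 to 3.32 CPM in AM and 2.89 to 5.06 CPM in 6WP cells, with COL1A2 at no more than 2 counts. LUM made up most of the WT sums (15.4 and 12.4 CPM), whereas in the AM and 6WP libraries COL1A1 was above LUM. The fibroblast sums thus separate WT from both other groups, the luminal sums separate AM from both others, and the neuroendocrine sums separate all 3 groups. The part of these marker levels in the results of any of the 3 comparisons was not tested. In bulk RNA, fewer cells expressing a gene and less RNA per cell cannot be told apart.

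The sequences that tie these genes to the pathway are shown before the values. IRE1α removes 26 bases from XBP1 mRNA, annotated on the minus strand at chr22:28796128-28796153 (GRCh38) between exons 4 and 5 of 6. These bases, in capitals below, are flanked by 20 bases of exon on each side.

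XBP1 intron: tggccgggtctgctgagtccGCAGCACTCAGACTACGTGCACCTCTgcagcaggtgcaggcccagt

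Taking out the 26 bases that start 1 base further downstream leaves the same mRNA, and in that placement, unlike the annotated one, both cut sites match the IRE1α loop letters CNGCNGN. The unspliced reading frame has 261 codons and the spliced one 376. Of 6 annotated XBP1 transcripts, 1 lacks the 26 bases and 4 hold them. They make up 1.43% of the 1817 bases of the unspliced transcript, so the XBP1 counts below hold both forms together.

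Promoters of 9 of the 10 genes were matched in RefSeq sequence (GRCh38.p14, from 250 bases before to 50 after the start), with EIF2AK1 missing. They were searched on both strands for 4 elements known from this pathway. The ER stress element (ERSE), which is CCAAT, 9 bases of any kind and CCACG, is read by ATF6 with NF-Y, and the amino acid response element (CARE), TGATGNAA, by ATF4 and its partners. ERSE was found in XBP1 alone of the 9 promoters, against 22 of 27305 promoters (0.0806%). It was also present in HSPA5 and CALR, which encode ER chaperones, and in HSP90B1, CRELD2 and EIF2A. In 6WP against AM cells the log2 fold changes were -2.02 for HSP90B1, -1.95 for CRELD2 and -0.02 for EIF2A. The windows show the element in capitals with 20 bases on each side, from chr22:28800583-28800641 (minus strand) for XBP1, chr9:125241371-125241429 (minus strand) for HSPA5 and chr19:12938364-12938422 (plus strand, element on the opposite strand) for CALR.

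XBP1 promoter: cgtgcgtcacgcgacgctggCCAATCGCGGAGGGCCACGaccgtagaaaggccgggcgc
HSPA5 promoter: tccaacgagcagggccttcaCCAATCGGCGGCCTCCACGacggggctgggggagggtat
CALR promoter: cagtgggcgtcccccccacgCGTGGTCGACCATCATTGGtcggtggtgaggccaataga

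CARE was found in PPP1R15B alone of the 9 promoters, and in 1003 of all promoters (3.67%). It also stood in CHAC1, ASNS and ATF3 among 9 matched promoters of ATF4 pathway genes. Among 17 matched promoters of ATF6 and XBP1 target genes it stood in HERPUD1 alone. The HERPUD1 promoter also held ERSE-II, an element given below, and HERPUD1 was lower in 6WP than in AM cells (log2 fold change -1.34). The windows below come from chr1:204412017-204412064 (minus strand) for PPP1R15B, chr7:97872449-97872496 (minus strand) for ASNS and chr15:40953242-40953289 (plus strand, element on the opposite strand) for CHAC1.

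PPP1R15B promoter: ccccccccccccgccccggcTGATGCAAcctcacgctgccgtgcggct
ASNS promoter: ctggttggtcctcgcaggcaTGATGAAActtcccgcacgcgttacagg
CHAC1 promoter: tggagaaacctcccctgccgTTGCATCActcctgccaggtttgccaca

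The shorter ERSE-II, which is ATTGG, 1 base of any kind and CCACG, and the unfolded protein response element, TGACGTGG, were in 0 of the 9 promoters, and in 0.0549% and 0.795% of all promoters. A match is a description of these letters and not a measured site.

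Counts of the 10 genes are not independent evidence, since the genes were chosen with earlier results of these data known. Across the 10 genes, ERN1 alone passed the test between 6WP and WT cells (1 of 10), where 3.00% of all tested genes did. ERN1 rose, a direction in which 1.63% of genes passed, against 1.37% in the other. Between 6WP and AM cells 5 of 10 passed, against 21.3% of all tested genes. ERN1, ATF6 and PPP1R15A were higher in 6WP cells (3 genes, 11.7% of all genes), and EIF2AK3 and XBP1 were lower (2 genes, 9.68% of all genes). Between AM and WT cells 2 of 10 passed, against 17.7% of all tested genes, XBP1 being higher (7.74% of all genes) and ATF6B lower (9.93% of all genes) in AM cells. The groups did not overlap for 7 of 10 genes between 6WP and WT cells, where this held for 50.7% of all genes, for 8 between 6WP and AM cells (62.3%) and for 7 between AM and WT cells (73.8%). Over all genes, 1711 were higher and 1420 lower in 6WP than in AM cells, which became 2276 and 1062 with upper quartile scaling. For AM against WT cells the split of 1136 higher and 1457 lower became 689 and 1832 with upper quartile scaling and 729 and 1664 with library size alone. All calls here and below are from edgeR's quasi-likelihood test on all 6 libraries with p-values adjusted over all tested genes, at a threshold of 0.05.

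**Figure D1:**
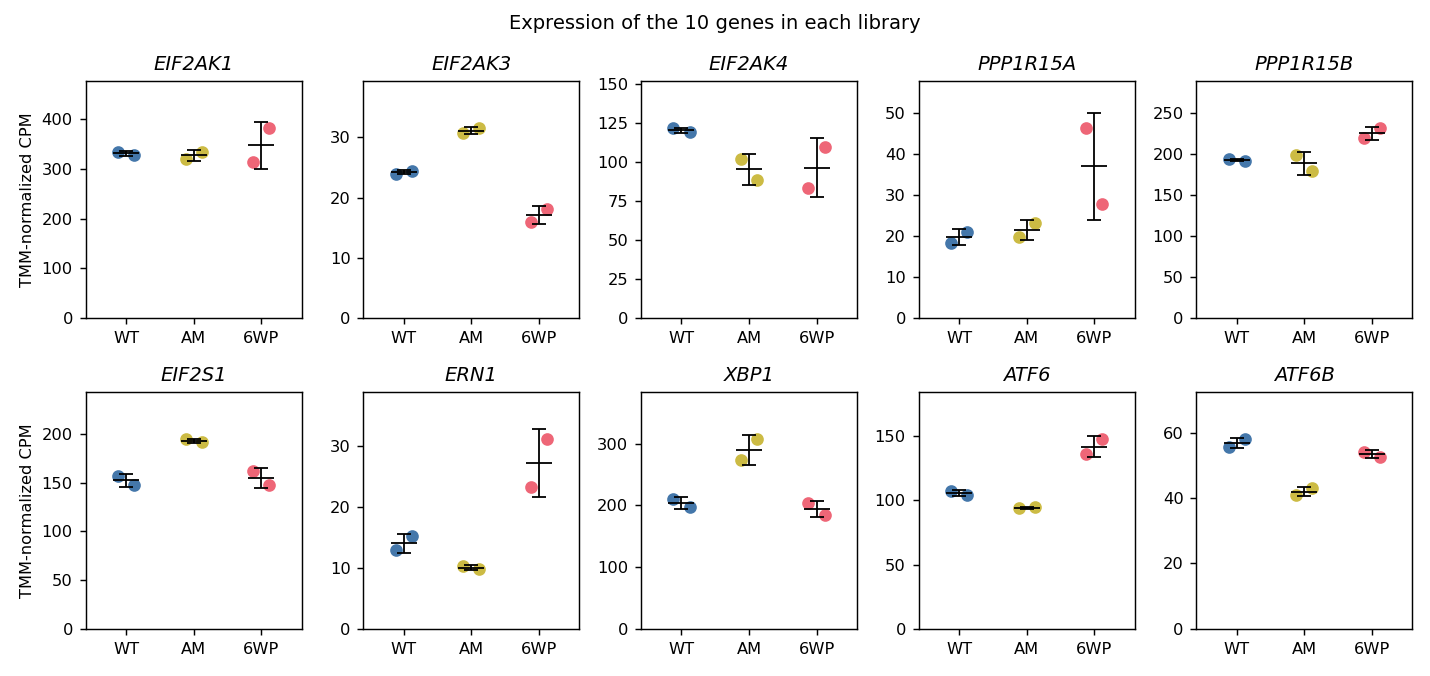
Expression of the 10 genes (vertical axis, TMM-normalized CPM from 0, a scale per panel) in the 2 libraries of each group (horizontal axis: WT, AM, 6WP), with points for libraries and bars for the mean ± SD. The 6WP libraries lie above all others for ERN1, ATF6, PPP1R15A and PPP1R15B and below all others for EIF2AK3, and the AM libraries lie above all others for XBP1 and EIF2S1.

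Of the kinase genes, EIF2AK3 changed and the other 2 did not pass the test in any comparison. EIF2AK3, for the ER membrane kinase PERK (chr2:88556741-88691518, minus strand), was at 24.0 and 24.4 CPM in the WT libraries. The AM libraries were at 30.7 and 31.4 CPM, and the 6WP libraries at 16.0 and 18.1 CPM. AM was thus highest and 6WP lowest, with no overlap between any 2 groups. The level in 6WP cells was 1.82-fold lower than in AM cells (log2 fold change -0.86 ± 0.13 SE, adjusted p = 0.00569 by edgeR's quasi-likelihood test). It was 1.42-fold lower than in WT cells (-0.50 ± 0.13), which did not pass (adjusted p = 0.0760). The AM level was 1.28-fold that of WT cells (0.36 ± 0.13) and did not pass either (adjusted p = 0.0837). It passed with these 2 groups fitted alone (0.00671), a fit that leaves out the widely spread 6WP libraries. For 6WP against WT cells the adjusted p was 0.0270 by DESeq2's Wald test. The difference from AM cells lost its call without AM replicate 1 (adjusted p = 0.0700) or AM replicate 2 (adjusted p = 0.0683), where the lone AM library is assumed to vary like the other groups.

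EIF2AK1, for the haem-regulated kinase HRI (chr7:6022247-6059175, minus strand), was at 335 and 328 CPM in WT, 319 and 335 CPM in AM and 314 and 381 CPM in 6WP cells. The groups overlapped in each comparison, with 6WP replicate 2 the highest library and 6WP replicate 1 the lowest. The log2 fold change was 0.07 between 6WP and WT cells (95% interval -0.21 to 0.35, adjusted p = 0.780, edgeR) and 0.09 between 6WP and AM cells (95% interval -0.19 to 0.36). Between AM and WT cells it was -0.02 (95% interval -0.30 to 0.26). Exons of AIMP2 on the opposite strand overlap 9.69% of its exon bases, and the strand setting of the counting is not given in the sources used here. Unnamed genes on the opposite strand likewise overlap 3.77% of the exon bases of EIF2AK3, 5.60% of PPP1R15B and 4.62% of ERN1.

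EIF2AK4, for GCN2, the kinase that senses uncharged tRNA (chr15:39934115-40035591, plus strand), was at 122 and 119 CPM in WT, 102 and 88.5 CPM in AM and 83.2 and 110 CPM in 6WP cells. Both later groups lay below the WT libraries and overlapped each other. The log2 fold change was -0.32 ± 0.15 SE in 6WP against WT cells (adjusted p = 0.257, edgeR) and -0.34 ± 0.15 in AM against WT cells (adjusted p = 0.149). Between 6WP and AM cells it was 0.02, with a 95% interval of -0.33 to 0.36. The value against WT cells ranged from -0.13 without 6WP replicate 1 to -0.54 without 6WP replicate 2, with a lone 6WP library in each of these fits. AM against WT cells passed with these 2 groups fitted alone (-0.33, adjusted p = 0.00511, edgeR). That fit leaves out the 6WP libraries, which differed most from each other. Without 6WP replicates 1 and 2 the values of AM against WT cells were -0.34 and -0.32.

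Per length, the kinase transcripts were far from equal. In RPKM (CPM divided by the length of the canonical transcript in kilobases), EIF2AK1 held 71.8% ± 0.315 (SD, n = 2) of the summed level of the 4 kinases in WT cells, with 74.2% ± 2.25 for AM and 77.9% ± 0.746 for 6WP cells. EIF2AK4 followed with 20.8% ± 0.0930 of the sum in WT cells, 17.2% ± 1.82 of it in AM cells and 17.2% ± 0.853 of it in 6WP cells. For EIF2AK3 the share was 5.10% ± 0.111 among WT libraries, 6.85% ± 0.100 among AM libraries and 3.74% ± 0.215 among 6WP libraries. EIF2AK2 held 2.34% ± 0.297, 1.70% ± 0.530 and 1.13% ± 0.108, respectively. These shares depend on the transcript assumed, since the annotated exons of EIF2AK3 together cover 20691 bases and its canonical transcript 4536. The canonical transcript of EIF2AK2 has 9975 bases. Before division by length, EIF2AK2 and EIF2AK3 were alike in WT cells, at means of 24.4 and 24.2 CPM.

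**Figure D2:**
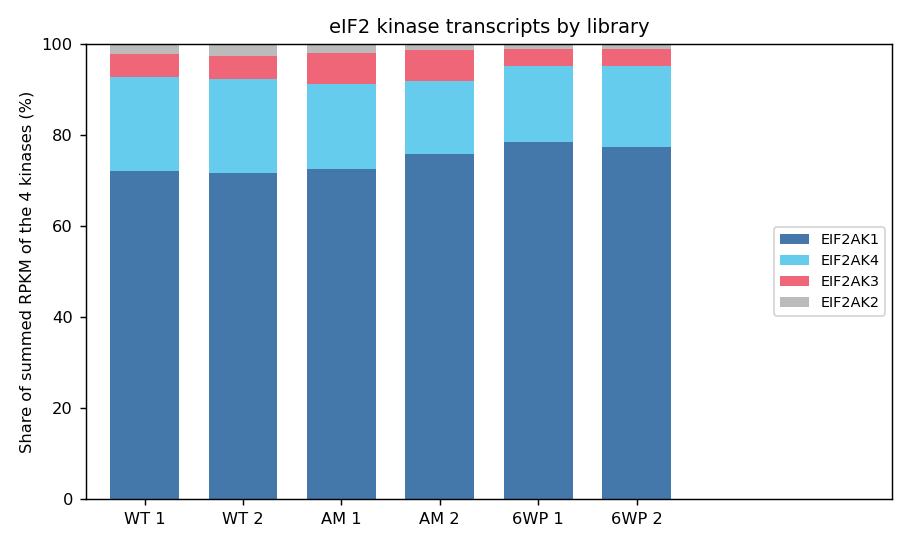
Share of each eIF2 kinase in the summed RPKM of the 4 kinases (vertical axis, percent, stacked to 100) in each of the 6 libraries (horizontal axis). EIF2AK1 is the largest part in each library, between 71.6% and 78.5%, and EIF2AK3 is smallest in the 6WP libraries, at 3.89% and 3.58%.

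EIF2S1, for the eIF2α subunit itself (chr14:67360328-67386516, plus strand), was at 157 and 147 CPM in WT, 195 and 192 CPM in AM and 162 and 148 CPM in 6WP cells. AM libraries were above both other groups, which overlapped. The log2 fold change of AM against WT cells was 0.34 ± 0.10 SE (adjusted p = 0.0572, edgeR) and that of 6WP against AM cells -0.32 ± 0.10 (adjusted p = 0.0622), both just short of the threshold. By DESeq2's Wald test the adjusted p values were 0.0358 and 0.0333. Between 6WP and WT cells the value was 0.02, with a 95% interval of -0.22 to 0.26.

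The phosphatase subunits direct protein phosphatase 1 to eIF2α, PPP1R15A (GADD34) as the stress-induced form and PPP1R15B (CReP) as the constitutive one. PPP1R15A (chr19:48872212-48876059, plus strand) was at 18.4 and 21.1 CPM in WT and 19.8 and 23.3 CPM in AM cells. The 6WP libraries were at 46.3 and 27.9 CPM, both above all others but far from each other. PPP1R15A was 1.72-fold higher in 6WP than in AM cells (log2 fold change 0.78 ± 0.23 SE, adjusted p = 0.0457, edgeR's quasi-likelihood test). Against WT cells it was 1.87-fold higher (0.91 ± 0.23), which did not pass (adjusted p = 0.0766). The call against AM cells was lost without any 1 of the WT or AM libraries (adjusted p = 0.0935 and 0.0972 without WT replicates 1 and 2, 0.244 and 0.155 without AM replicates 1 and 2). It was also lost with the AM and 6WP libraries fitted alone (0.0954) or after thinning to equal depth (0.0523). The log2 fold change against AM cells ranged from 0.37 to 1.08 over the libraries left out, its extremes being without 6WP replicate 1 and without 6WP replicate 2.

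PPP1R15B (chr1:204396492-204411887, minus strand) was at 194 and 192 CPM in WT, 198 and 179 CPM in AM and 219 and 231 CPM in 6WP cells. Both 6WP libraries lay above the rest, with log2 fold changes of 0.22 ± 0.10 SE against WT (adjusted p = 0.255, edgeR) and 0.26 ± 0.10 against AM cells (adjusted p = 0.116). AM against WT cells gave -0.03, with a 95% interval of -0.27 to 0.21. Per length (RPKM), the ratio of PPP1R15A to PPP1R15B was 0.213 and 0.247 in the WT, 0.223 and 0.291 in the AM and 0.472 and 0.270 in the 6WP libraries. The ratio in 6WP replicate 2 fell within the AM range.

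Among the sensors, ERN1 had the largest fold change of the 10 genes. ERN1, for the kinase and RNase IRE1α (chr17:64039080-64130819, minus strand), was at 12.9 and 15.2 CPM in WT, 10.3 and 9.75 CPM in AM and 23.2 and 31.1 CPM in 6WP cells. The groups did not overlap, with 6WP highest and AM lowest. ERN1 rose 2.71-fold in 6WP against AM cells (log2 fold change 1.44 ± 0.18 SE, adjusted p = 0.00363, edgeR's quasi-likelihood test) and 1.93-fold against WT cells (0.95 ± 0.18, adjusted p = 0.0359). AM against WT cells gave -0.49 ± 0.18, which did not pass (adjusted p = 0.0975). The call against WT cells was lost with the 2 groups fitted alone (adjusted p = 0.106), without WT replicate 1 (0.396) or 2 (0.257) and without AM replicate 1 or 2 (0.110 in both). The call against AM cells was lost without AM replicate 1 (0.0543) or 2 (0.0613). The value kept its sign in each of these fits. The lower level in AM than in WT cells, not called in the reported fit, passed with the AM and WT libraries fitted alone (-0.49, adjusted p = 0.00639). The widely spread 6WP libraries do not enter that fit. Per length, the ratio of ERN1 to EIF2AK3 was 0.334 ± 0.0331 (SD, n = 2) for WT, 0.185 ± 0.0105 for AM and 0.910 ± 0.106 for 6WP cells.

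XBP1, for the transcription factor made from IRE1α-spliced mRNA (chr22:28794555-28800597, minus strand), was at 211 and 198 CPM in WT, 273 and 307 CPM in AM and 203 and 184 CPM in 6WP cells. AM libraries stood above both other groups, which overlapped. XBP1 rose 1.42-fold in AM against WT cells (log2 fold change 0.51 ± 0.11 SE, adjusted p = 0.0230, edgeR's quasi-likelihood test) and stood at 0.669 times the AM level in 6WP cells (-0.58 ± 0.11, adjusted p = 0.0130). In 6WP against WT cells it was -0.07, with a 95% interval of -0.34 to 0.19. The rise in AM cells lost its call without WT replicate 1 (adjusted p = 0.142) or 2 (0.219) and without AM replicate 1 (0.101) or 2 (0.218). The difference between 6WP and AM cells was lost without AM replicate 1 (0.0804) or 2 (0.128). ERN1 and XBP1, enzyme and substrate, thus stood in opposite order in 6WP and AM cells at the level of total mRNA.

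ATF6 and ATF6B encode related ER membrane factors, ATF6 being the stronger activator. ATF6 (chr1:161766298-161977574, plus strand) was at 107 and 104 CPM in WT, 93.7 and 94.6 CPM in AM and 136 and 148 CPM in 6WP cells, with no overlap between groups. It was 1.51-fold higher in 6WP than in AM cells (log2 fold change 0.59 ± 0.10 SE, adjusted p = 0.00920, edgeR's quasi-likelihood test). Against WT cells it was 1.34-fold higher (0.43 ± 0.10, adjusted p = 0.0682), and AM against WT cells gave -0.17 ± 0.10 (adjusted p = 0.285). By DESeq2's Wald test the difference between 6WP and WT cells had an adjusted p of 0.0292. The call against AM cells was lost without AM replicate 1 (adjusted p = 0.0972) or 2 (0.0900).

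ATF6B (chr6:32115264-32128253, minus strand) was at 55.7 and 58.0 CPM in WT, 41.0 and 42.9 CPM in AM and 54.2 and 52.6 CPM in 6WP cells. AM was lowest, and 6WP lay just under WT without overlap. ATF6B was 1.35-fold lower in AM than in WT cells (log2 fold change -0.44 ± 0.11 SE, adjusted p = 0.0293, edgeR's quasi-likelihood test). Its call was lost without WT replicate 1 (adjusted p = 0.164) or 2 (0.210) and without AM replicate 1 (0.180) or 2 (0.168). In 6WP against AM cells the value was 0.35 ± 0.11 (adjusted p = 0.0511), and with upper quartile scaling it passed (0.44, adjusted p = 0.0233). Exons of TNXB and an unnamed gene on the same strand overlap ATF6B over 360 bases, where reads cannot be assigned with certainty. Per length, the ratio of ATF6 to ATF6B was 0.653 ± 0.0321 (SD, n = 2) for WT, 0.789 ± 0.0201 for AM and 0.933 ± 0.0738 for 6WP cells.

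**Figure D3:**
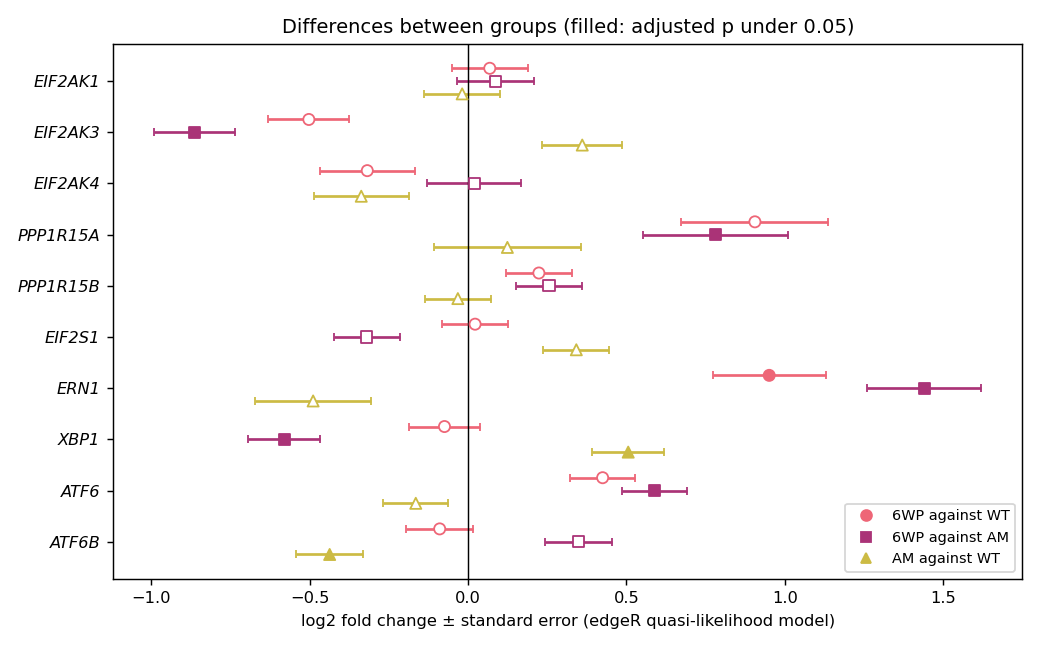
Log2 fold change (horizontal axis) of the 10 genes (vertical axis) in the 3 comparisons, with bars for the standard error and filled symbols for an adjusted p under 0.05 (edgeR). ERN1 reaches 1.44 in 6WP against AM cells, while XBP1 lies at 0.51 in AM against WT and at -0.58 in 6WP against AM cells.

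By level per length, XBP1 led the 10 genes in WT cells at 114 RPKM ± 5.26 (SD, n = 2), followed by EIF2AK1 at 75.1 ± 1.05. EIF2S1 at 36.7 ± 1.65 and PPP1R15B at 36.6 ± 0.264 could not be told apart within their spread, nor could EIF2AK4 at 21.8 ± 0.307 and ATF6B at 21.6 ± 0.608. ATF6 followed at 14.1 ± 0.298, PPP1R15A at 8.42 ± 0.810, EIF2AK3 at 5.33 ± 0.0653 and ERN1 at 1.78 ± 0.198 RPKM. In 6WP cells ERN1 at 3.44 ± 0.708 and EIF2AK3 at 3.76 ± 0.338 RPKM were within their spread of each other, and ATF6 (19.0 ± 1.11), ATF6B (20.3 ± 0.418), EIF2AK4 (17.4 ± 3.42) and PPP1R15A (15.8 ± 5.54) overlapped in part.

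The transcriptional outputs of the pathway moved in opposite directions in 6WP cells, while some of both rose in AM against WT cells. Of 20 ATF6 and XBP1 target genes, which encode ER chaperones and degradation factors, 20 were called lower in 6WP than in AM cells (9.68% of all tested genes). Their median log2 fold change was -1.42, against 0.05 over all tested genes. In 6WP against WT cells 7 were called lower (1.37% of all genes) and 0 higher (median -0.67, all genes 0.01). In AM against WT cells 18 were called higher, against 7.74% of all genes (median 0.78, all genes -0.00). Of 10 ATF4 pathway output genes, 7 were called higher in 6WP against WT cells, against 1.63% of all genes (median 1.21). In 6WP against AM cells 7 were called higher, against 11.7% of all genes (median 0.72). In AM against WT cells it was 4, against 7.74% of all genes (median 0.54), with 0 called lower in any comparison. Both lists were compiled with earlier results of these libraries known, so their counts are not independent evidence of direction. Without AM replicate 1 or 2, the target genes called in 6WP against AM cells were 11 and 10, and the ATF4 outputs 0. Without WT replicate 1 or 2, both lists had 0 calls in 6WP against WT cells. In AM against WT cells the target genes called fell to 1 and 0 without WT replicate 1 or 2 and 3 and 1 without AM replicate 1 or 2, and the ATF4 outputs to 0 each time.

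HSPA5, for the chaperone BiP that holds the sensors inactive, was at 1545 and 1534 CPM in WT, 2705 and 2874 CPM in AM and 444 and 512 CPM in 6WP cells. The groups did not overlap. Its log2 fold change was -2.54 ± 0.13 SE in 6WP against AM cells (adjusted p = 0.000177, edgeR), -1.69 ± 0.12 in 6WP against WT cells (adjusted p = 0.00338) and 0.86 ± 0.12 in AM against WT cells (adjusted p = 0.00604). PDIA4, a disulfide isomerase, had log2 fold changes of -2.45 ± 0.11 against AM and -1.47 ± 0.11 against WT cells, and MANF, a secreted ER stress protein, had -2.37 ± 0.13 and -1.31 ± 0.12. DNAJB11, a BiP cochaperone, stood at -1.84 ± 0.13 against AM cells, and CALR, the lectin chaperone calreticulin, at -0.96 ± 0.12 against WT cells. HSPA5 and CALR carry the ERSE shown above with XBP1, and of 17 matched target promoters 4 held ERSE and 3 held ERSE-II.

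ATF4, the transcription factor favoured when eIF2α is phosphorylated, was at 425 and 422 CPM in WT, 497 and 579 CPM in AM and 739 and 731 CPM in 6WP cells. It rose in 6WP against WT cells (log2 fold change 0.80 ± 0.11 SE, adjusted p = 0.0155, edgeR) and against AM cells (0.45 ± 0.11, adjusted p = 0.0273), and AM against WT cells gave 0.34 (adjusted p = 0.0703). DDIT3 (CHOP), a stress transcription factor, was at 35.1 and 33.9 CPM in WT, 71.2 and 80.8 CPM in AM and 144 and 96.7 CPM in 6WP cells. It rose in all 3 comparisons, by 1.80 ± 0.19 in 6WP against WT (adjusted p = 0.00528), 0.66 ± 0.18 in 6WP against AM (adjusted p = 0.0367) and 1.14 ± 0.19 in AM against WT cells (adjusted p = 0.00875). Without 6WP replicate 1 the value against AM cells was 0.34, and the call was lost with these 2 groups fitted alone (adjusted p = 0.0893). Exons of MARS1 and MBD6 overlap 31.6% of DDIT3 exon bases on the opposite strand, and unnamed genes on the same strand overlap exons of ASNS over 2415 bases and of NUPR1 over 909. Opposite-strand exons overlap 9.64% of the exon bases of CALR and 9.34% of those of DNAJB11, and exons on the same strand overlap DNAJB11 over 451 bases and PDIA5 over 576. CHAC1, a glutathione-degrading enzyme, rose 5.77-fold against WT cells (log2 fold change 2.53 ± 0.21) and 2.82-fold against AM cells. ASNS, asparagine synthetase, gave log2 fold changes of 1.17 ± 0.12 and 0.72 ± 0.12, and SESN2, an mTORC1 regulator, 1.53 ± 0.17 and 0.98 ± 0.16, while NUPR1, a stress-induced chromatin protein, rose by 0.72 ± 0.17 against AM cells (0.44 without 6WP replicate 1). CHAC1 and ASNS carry the CARE shown above with PPP1R15B, which did not pass the test in any comparison.

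**Figure D4:**
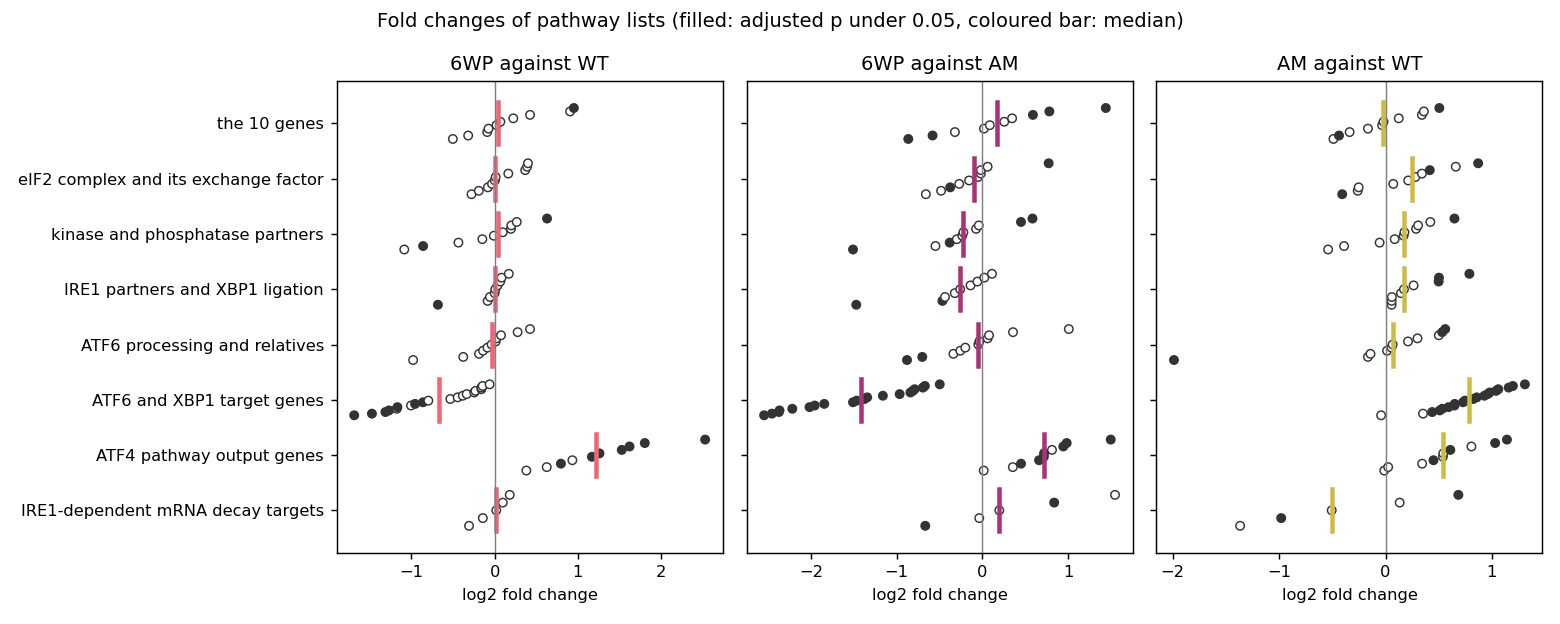
Log2 fold change (horizontal axis) of the tested genes of each list (vertical axis) in the 3 comparisons, with a point per gene, filled where the adjusted p was under 0.05 (edgeR), and a coloured bar at the median. The ATF6 and XBP1 targets lie at a median of -1.42 in 6WP against AM cells and 0.78 in AM against WT cells, while the ATF4 outputs have medians of 0.72 and 0.54.

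Other genes around the 10 are given by list, to be read beside the calls over all tested genes. In 6WP against WT cells 1.63% of all genes were called higher and 1.37% lower. In 6WP against AM cells these shares were 11.7% and 9.68%, and in AM against WT cells 7.74% and 9.93%. Of 10 subunits of eIF2, its exchange factor eIF2B and related factors, 0 passed in 6WP against WT cells, and 1 rose and 1 fell in 6WP against AM cells. These were EIF2D, an alternative initiation factor (0.77 ± 0.11 SE), and EIF2B5, the catalytic exchange subunit (-0.37 ± 0.11). In AM against WT cells 2 rose and 1 fell. The medians were 0.01 for 6WP against WT cells, -0.10 for 6WP against AM cells and 0.25 for AM against WT cells, the order used for the lists that follow.

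Of 10 kinase and phosphatase partners, 1 rose and 1 fell in 6WP against WT cells, 2 rose and 2 fell in 6WP against AM cells and 1 rose in AM against WT cells (medians 0.04, -0.23 and 0.17). Over all tested genes, 3.00%, 21.3% and 17.7% passed in either direction, in the same order. IMPACT, an inhibitor of GCN2 activation, rose by 0.63 ± 0.13 and 0.45 ± 0.13 on the log2 scale in 6WP against WT and AM cells. After thinning to equal depth IMPACT passed in neither (adjusted p = 0.0511 and 0.0518), and it lost its call against WT cells with library size alone (0.0520) and against AM cells with DESeq2 size factors (0.0510). Its value against AM cells was 0.27 without 6WP replicate 2. DNAJC3 (p58IPK), a kinase inhibitor and BiP cochaperone that is also in the target list, fell, with -0.86 ± 0.13 and -1.51 ± 0.13. GCN1L1, the GCN2 activator GCN1, was lower in 6WP than in AM cells (-0.38 ± 0.10), and KIAA0141 (DELE1), which carries a mitochondrial signal to HRI, was higher (0.59 ± 0.16, and 0.29 without 6WP replicate 2). EIF2AK2, for PKR, was at 22.4 and 26.5 CPM in WT, 20.6 and 13.2 CPM in AM and 9.55 and 13.5 CPM in 6WP cells. It did not pass in any comparison. Its level in 6WP cells was 2.12-fold lower than in WT cells, without overlap (-1.09 ± 0.25, adjusted p = 0.0595, edgeR). Against AM cells the value was -0.55 ± 0.25 (adjusted p = 0.148), with overlap, and AM against WT cells gave -0.54 ± 0.24 (adjusted p = 0.156).

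Of 9 tested IRE1α partners and XBP1 ligation factors, 0 rose and 1 fell in 6WP against WT cells, 0 rose and 2 fell in 6WP against AM cells and 3 rose in AM against WT cells (medians 0.01, -0.26 and 0.17). PDIA6, an isomerase that attenuates IRE1α, fell to log2 fold changes of -0.68 ± 0.10 against WT and -1.47 ± 0.10 against AM cells, and TRAF2, the adaptor of IRE1α kinase signalling, to -0.47 ± 0.13 against AM cells. Exons of ATP6V1C2 on the opposite strand overlap 25.2% of the exon bases of PDIA6. Of 11 tested ATF6 processing genes and relatives, 0 passed in 6WP against WT cells, 2 fell in 6WP against AM cells, and 2 rose and 1 fell in AM against WT cells (medians -0.04, -0.05 and 0.07). PDIA5, an isomerase that acts on ATF6, fell by 0.70 ± 0.11 and CREB3L2, an ATF6-like membrane factor, by 0.88 ± 0.16 against AM cells. ERN2 and CREB3L3 did not pass the filter on low counts. Of 5 mRNAs known to be cut by IRE1α, 0 passed in 6WP against WT cells, and in 6WP against AM cells SCARA3 fell by 0.67 ± 0.12 and COL6A1 rose by 0.84 ± 0.24 (0.45 without 6WP replicate 2). In AM against WT cells 1 rose and 1 fell (medians 0.02, 0.20 and -0.51). Passing in either direction were 3.00%, 21.3% and 17.7% of all tested genes, in the same order. Several counts of these lists lie near those shares.

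Of the calls of named pathway genes above, 12 of 12 in 6WP against WT cells were lost without WT replicate 1 or 2, and 8 were left without AM replicate 1 or 2. In 6WP against AM cells 16 of 22 were lost without AM replicate 1 or 2, with 6 left in each. Without WT replicate 1 or 2, 13 of the 22 were left, and COL6A1 was lost without 6WP replicate 2. With only the 2 groups compared in the fit, 13 of 22 were left against AM cells (EIF2B5, GCN1L1, KIAA0141, IMPACT, TRAF2, NUPR1, COL6A1, ATF4 and DDIT3 lost) and 8 of 12 against WT cells (DNAJC3, IMPACT, PDIA6 and ATF4 lost). In 6WP against AM cells, EIF2B5 and TRAF2 also lost their calls with upper quartile scaling and with library size alone, GCN1L1 with upper quartile scaling and EIF2B5 with no filter. Both calls in AM against WT cells, HSPA5 and DDIT3, were lost without any 1 WT or AM library. The signs did not turn in any of these fits.

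**Figure D5:**
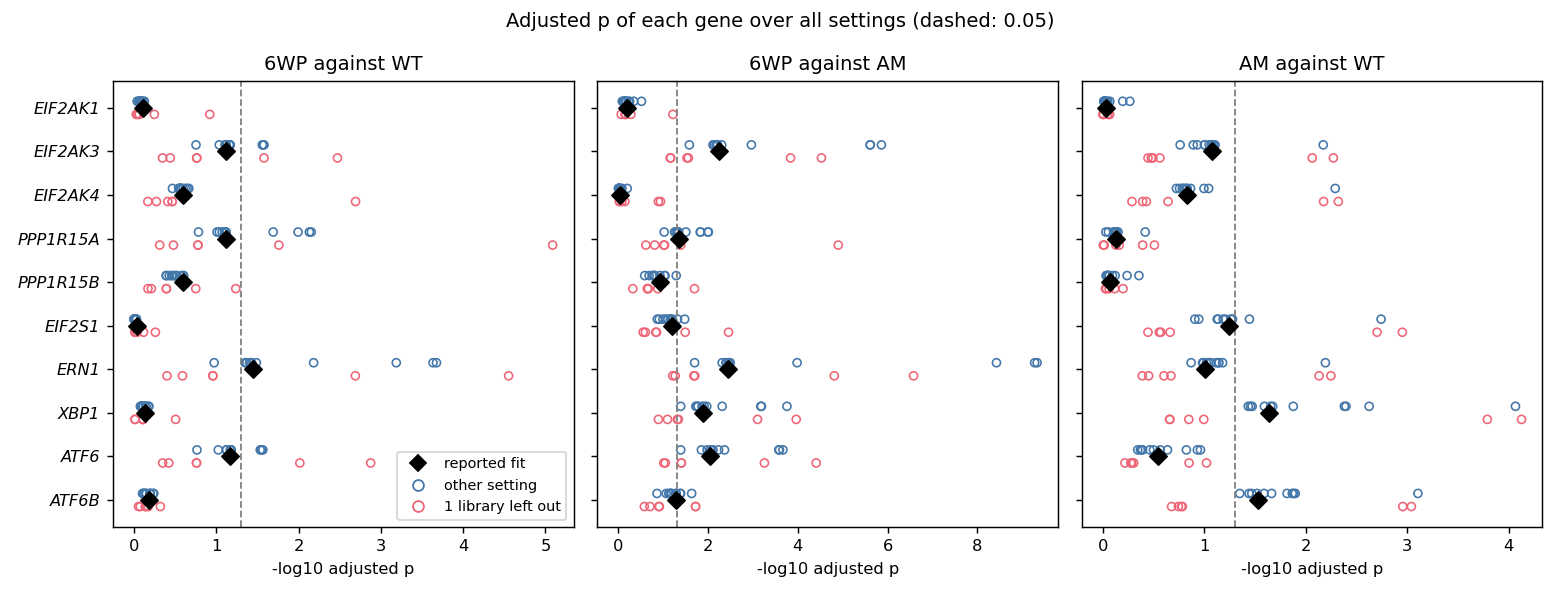
Adjusted p of each of the 10 genes (vertical axis) as -log10 (horizontal axis) in the 3 comparisons, with a diamond for the reported edgeR fit, blue circles for other settings and red circles for fits with 1 library left out. The dashed line marks 0.05. ERN1 in 6WP against AM cells spans adjusted p values from 4.67e-10 to 0.0613, and only fits without an AM library put it left of the line.

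The genes most like those that passed were named by Pearson's r of log2 CPM across the 6 libraries, as a description, since the 6 points share their groups. They were ANXA6 (0.998) and KLHL2 (0.995) for EIF2AK3, RARG (0.999) and YY1 (0.998) for PPP1R15A, and HEYL (0.995) and AIFM3 (0.994) for ERN1. XBP1 was most like PSMC4 (0.999) and LAMTOR5 (0.997), ATF6 most like MAGI2 (0.995) and HEYL (0.991), and ATF6B most like FOXP2 (0.995) and PIK3IP1 (0.994). HEYL appeared for both ERN1 and ATF6.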

How the data were processed

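RNA-seq of 6 libraries (3 groups, 2 each) was analysed. The table the authors deposited holds raw counts for each symbol, whole numbers that were neither normalized nor pooled. Per the labels and the methods, 100 bp single end reads were aligned to hg38 with STAR (2.5.3a), and the submitters' processing notes also name featureCounts (1.5.3), StringTie (1.3.3), edgeR (3.22.3) and R (3.5.0). The annotation and the strand setting of the counting are not given in the sources used here. A count shared by overlapping genes can therefore fall to either.

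Counts were analysed in R (4.3.3) with edgeR (4.0.16) and DESeq2 (1.42.0). Genes were kept by filterByExpr on the 3 groups, TMM factors were computed, and 1 quasi-likelihood fit with the 3 groups as its only terms covered the 6 libraries. Tests were two-sided, with Benjamini-Hochberg adjustment over all 14672 genes and a threshold of 0.05. The standard error is the log2 fold change over the square root of F. With 2 libraries a group, the smallest p of an exact permutation test would be 0.333, so only the model gives calls, and floors of 3 counts cover counting error only. RPKM used TMM-scaled counts and the canonical transcript of GENCODE on GRCh38, which may differ from the annotation counted. The pipeline was tested on simulated data. Alternatives covered scaling, filters, tests, the libraries fitted, a replicate block, equal depth and leaving out each library.

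The 10 genes, the pathway and marker lists and the tests were chosen with earlier results of these data known. Named were all 10 genes, up to 4 genes per pathway list with the smallest p among those called in 6WP against WT or AM cells, HSPA5, ATF4 and DDIT3, and for each called gene the 2 with the highest Pearson's r (mean of at least 1 log2 CPM). CALR, shown as a promoter example, is among the genes so named, but the promoters shown were a selection of those holding an element. Outside that rule, HERPUD1, ATF3, HSP90B1, CRELD2 and EIF2A were named for their promoter elements and EIF2AK2 as the other eIF2 kinase. ERN2 and CREB3L3 were named for not passing the filter.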

Additional observations from a re-analysis of the deposited data

How the results depend on the processing

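Over 17 alternatives in 3 comparisons, 427 of 510 values of the 10 genes kept their direction and side of the threshold, 40 passed only under the alternative, 28 no longer passed and 15 changed sign. The sign changes were all in values that did not pass under either setting. In 6WP against WT cells they were EIF2AK1 (-0.0808 without 6WP replicate 2, 0.20 without replicate 1) and EIF2S1 (-0.00052 with library size alone, -0.0323 without WT replicate 2, -0.0451 and 0.0847 without 6WP replicates 1 and 2). In 6WP against AM cells they were EIF2AK1 (-0.0834 without 6WP replicate 2, 0.22 without replicate 1) and EIF2AK4 (-0.0090 with DESeq2 size factors, -0.0091 by the Wald test, -0.00094 with 2 groups, -0.0215 after thinning, -0.0788 without AM replicate 2, -0.22 and 0.21 without 6WP replicates 2 and 1). In AM against WT cells they were EIF2AK1 (0.00089 without AM replicate 1, -0.0675 without AM replicate 2, 0.0026 without 6WP replicate 2), PPP1R15A (-0.0125 and 0.22 without AM replicates 2 and 1) and PPP1R15B (0.0280 and -0.12 without AM replicates 2 and 1). In 6WP against WT cells the number of the 10 genes called was 2 with no filter, 4 each by the Wald, likelihood ratio and exact tests, 0 with 2 groups and 0 to 5 with 1 library left out. In 6WP against AM cells it was 0 to 8 with 1 library left out. In AM against WT cells it was 6 with 2 groups and 0 to 6 with 1 library left out. Leaving out a 6WP library, the group with the widest spread, left 4 or 5 calls against WT and 8 or 7 against AM cells. Over all genes, the 440 calls in 6WP against WT cells became 894 with no filter, 1074, 1492 and 1419 by the Wald, likelihood ratio and exact tests, 98 with 2 groups and 0 to 3801 with 1 library left out (unadjusted p under 0.05: 3283 genes). The 3131 calls in 6WP against AM cells became 1299 with 2 groups and 115 to 6799 with 1 library left out, and the 2593 in AM against WT cells 6635 and 46 to 6714. The cause was not tested. The smallest total, 21222201 counts, limits what could be detected to 0.141 CPM (3 counts, before TMM scaling).

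For same-numbered libraries, deviations from the group means correlated at 0.0395 (WT and AM), 0.0873 (WT and 6WP) and -0.0206 (AM and 6WP) across genes. No broad effect shared by replicate number was thus seen. Whether same-numbered cultures were paired or handled together cannot be told from these values. With a replicate block the 10 genes had 1 call in 6WP against WT cells, 4 in 6WP against AM cells and 2 in AM against WT cells, PPP1R15A against AM cells being the call lost (adjusted p = 0.0558, edgeR), and all genes, in that order, 393, 3069 and 2485, of which 343, 2846 and 2307 were shared with the fit without it. Of the named pathway genes, the block removed IMPACT in 6WP against WT (adjusted p = 0.0587) and AM cells (0.0555), and EIF2B5 (0.0539) and TRAF2 (0.0587) in 6WP against AM cells.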
